A study of Mus musculus with 8 samples.

Results

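Kidney RNA of 2 samples from untreated db/db mice was compared with that of 2 samples from normal mice, 1 Agilent array per sample, out of 8 arrays in the series. All mice were male and 20 weeks old, on the C57BLKS/J Iar background. The db/db mice (strain label +Leprdb/+Leprdb) carried 2 copies of the db mutation, which spoils the long, signalling leptin receptor, and mice of this kind overeat and become obese and diabetic. The normal mice (m+/m+) had normal Lepr but carried 2 copies of m, a marker allele close to Lepr, so the groups differ at both loci. The other 4 arrays came from db/db mice given nanoparticles (PEI-NPs) with a control miRNA or a miR-181b-5p mimic. They entered only the estimate of the spread, the filter on background and the choice of the probe for each gene. The arrays were matched to their groups by the source name in the labels, and 22368 of 36824 genes on the array were tested, those that exceeded background clearly on each array of at least 1 of the 4 groups.

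The nephron is a chain of specialised epithelia. Blood is filtered in the glomerulus through the slits between podocytes. The proximal tubule then takes back glucose, amino acids, phosphate and filtered protein in its early, convoluted parts (S1 and S2), and secretes and detoxifies organic acids and steroids mainly in S2 and in its straight part, S3. The loop of Henle, distal convoluted tubule, connecting tubule and collecting duct adjust salt, calcium, acid and water. In male mice many proximal tubule genes, above all in S3, depend on androgen. All values are from kidney RNA, and the labels do not say which part of the kidney was taken. In such samples fewer cells of a type and less RNA per cell cannot be told apart.

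Levels are log2 signals relative to the 75th percentile of the array, so 0 is a gene at that percentile, and changes are log2 differences of untreated db/db minus normal. A gene passed when its Benjamini-Hochberg adjusted p in limma was under 0.05, in a fit of all 8 arrays that share 1 estimate of the spread. In this fit 783 genes passed, 3.50% of those tested, with 278 higher (1.24%) and 505 lower (2.26%). Quantile normalization gave 494 higher and 467 lower, so the excess of lower genes depends on how the arrays are scaled. The mimic replicates differed more than those of any other group, with 2470 genes over 2-fold apart against 164 for untreated db/db and 682 for normal kidney. When both mimic arrays were left out (the 6-array fit below) 3340 genes passed, 14.9% of those tested, 1339 higher (5.99%) and 2001 lower (8.95%), and all 783 were among them. The levels of the 2 groups were apart, with no overlap, for 63.2% of genes, with db/db above normal for 28.3% and below for 35.0%. Of all changes 45.5% were above 0 and 54.5% below. The arrays shared 1 slide and 1 scan. Normal kidneys lay in columns 1 and 2 of array row 1 and untreated db/db kidneys in columns 3 and 4. The db/db arrays given control miRNA lay in columns 1 and 2 of row 2. Within the 4 arrays compared, column and genotype cannot be told apart, and the part of array position was not tested. Between 58.4% and 62.5% of spots on these 4 arrays lay well above background and 0 were saturated, and 2 arrays a group limit the precision of every value. The labels number the samples of a group but do not say that each came from a separate mouse, so p-values measure only the spread between these samples, which may be technical.

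Lepr was checked first. Its level was 3.12 and 3.08 in normal and 2.29 and 2.30 in db/db kidney, a change of -0.80 that did not pass (adjusted p = 0.0551; 0.0159 with 6 arrays). The other Lepr probe stood at -2.16, and with the mean of both the change was -1.48 and passed (adjusted p = 0.0289). The db mutation alters splicing rather than deleting the gene, and the array does not say whether these probes lie in the changed part, so the level does not check the labels by itself.

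Among the 15 largest changes in each direction were enzyme, transporter and uncharacterised genes. Gsta2, a glutathione transferase, rose 25.1-fold (adjusted p = 0.0272), and Gm10639 together with a pair of unnamed transcripts from the same stretch of chromosome 9 rose with it. Cyp4a14, Gc, Kynu, Cyp24a1, Bhmt and Cyp27b1 were also among the 15 largest rises, with changes of 4.71, 4.13, 3.78, 3.37, 3.12 and 3.11. F10 rose at least 5.30-fold, Crabp1 at least 5.14-fold and the predicted gene Gm31075 at least 6.06-fold, since none lay well above background in normal kidney. With another background correction (normexp) the changes of F10 and Crabp1 were 1.055 and 0.98. That of F10 then did not pass (adjusted p = 0.0856). An unnamed probe of chromosome 1 (A_55_P2178798) was among them too. The largest fall was that of 0610009K14Rik, an uncharacterised transcript of chromosome 4, whose level was 4.02 and 2.95 in normal and -7.41 and -4.86 in db/db kidney (adjusted p = 0.0164). It lay well above background on only 1 of the 2 db/db arrays, so the size of this fall and its rank are uncertain. Sec14l3, of the lipid-binding Sec14 family, fell at least 79.5-fold and Gm6300 at least 21.5-fold. Slco1a1, Slc22a7, Alox15, Masp2, Slc22a26, Cyp7b1, Albfm1 and Ceacam13 fell too, with changes of -6.84, -6.68, -4.89, -4.59, -4.52, -4.40, -4.39 and -4.24. The predicted or noncoding transcripts Sox2ot, Gm1653 and Gm3404 fell at least 6.09-fold, 7.04-fold and 5.79-fold, and an unnamed transcript was the 15th.

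By family, enzyme genes had the highest share passing and transcription factor genes the lowest. Of 446 measured members of 28 enzyme and enzyme-inhibitor families and their subfamilies, 19 rose and 30 fell, 11.0% against the 3.50% of all genes. Of 465 measured members of 32 transporter and channel families 13 rose and 11 fell, or 5.16%. Of 739 measured members of 25 transcription factor families 7 rose and 13 fell, or 2.71%. With 6 arrays the shares were 26.7%, 20.6% and 12.7%, against 14.9% of all genes. These families were chosen by symbol with earlier results of the series known, and the shares describe these lists and no more.

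Along the nephron the medians furthest above 0 were those of podocyte, S1, distal convoluted tubule, connecting tubule and type A intercalated cell genes. Those of S3 and thin limb genes lay furthest below it, and few genes passed in each list. Marker lists covered 15 segments or cell classes, and each median can be read against -0.04, the median of all genes.

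**Figure D1:**
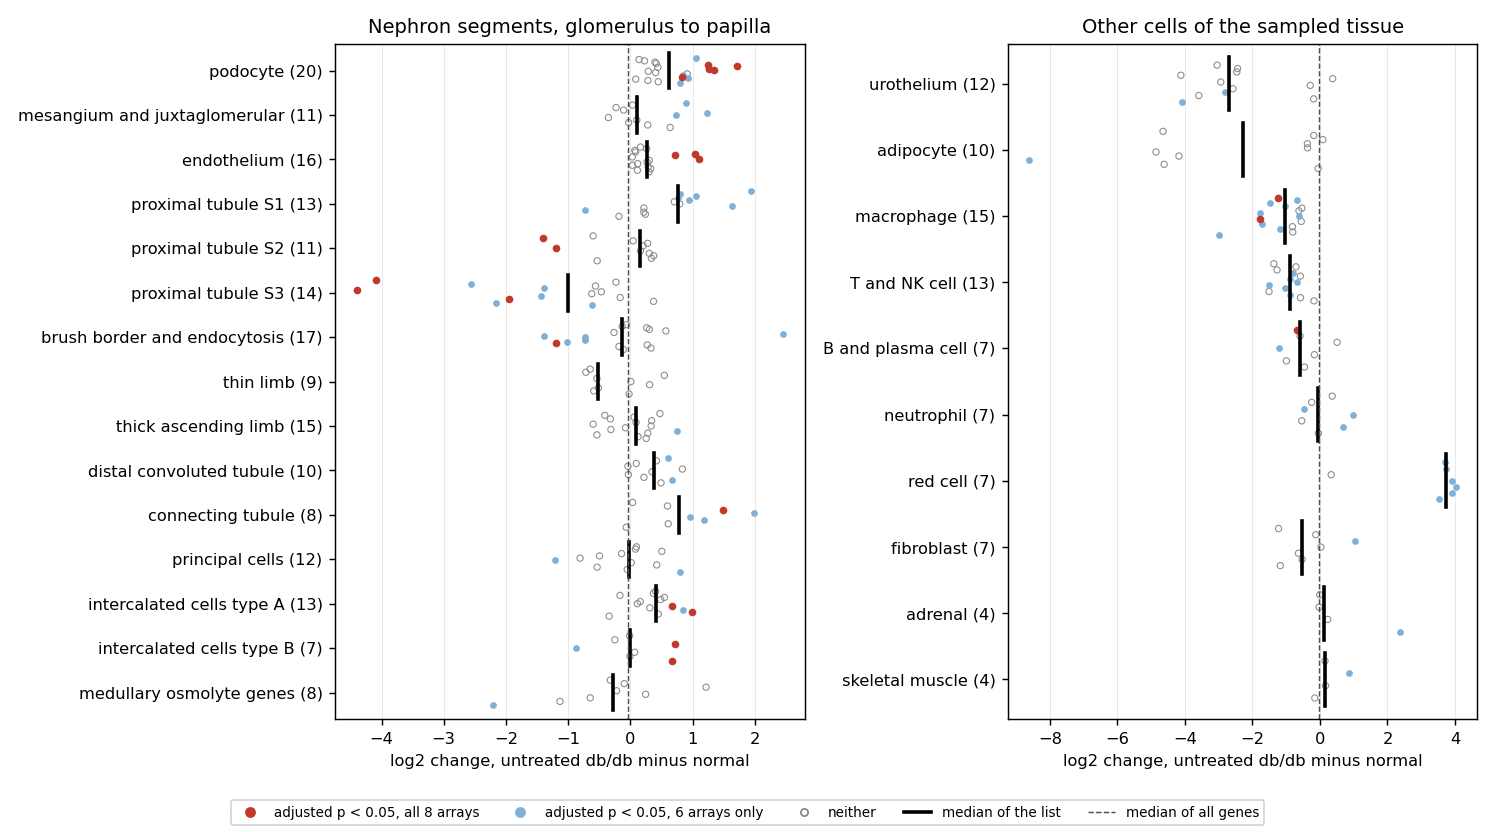
Change of each measured marker gene (x axis, log2 untreated db/db minus normal; 1 point per gene) for nephron segments (left) and for other cells of the sampled tissue (right), with the number of genes in parentheses. Red points passed in the fit of all 8 arrays and blue points only with 6 arrays; the black bar is the list's median. All 20 podocyte genes lie above 0, 13 of 14 genes of the straight proximal tubule (S3) below it, and urothelium, fat and macrophage genes lie far to the left.

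In podocytes the direction was the same for every gene measured. All 20 podocyte genes had a change above 0 (median 0.62), 17 of them without overlap of the groups against 28.3% of all genes, and 5 rose (9 with 6 arrays, 0 fell in either fit). With the mean of all probes of a gene the median was 0.40. Cdkn1c, a cell-cycle inhibitor of mature podocytes, had levels of 2.18 and 2.24 in normal and 3.82 and 4.02 in db/db kidney, a rise of 1.71 (adjusted p = 0.0449). Podxl, the charged coat protein of the foot processes, went from -1.06 and -1.29 to 0.17 and 0.16 (rise 1.34, adjusted p = 0.0261). Synpo, an actin-binding protein of the foot processes, rose by 1.26, and the transcription factors Wt1 and Foxc2 by 1.24 and 0.84. Of 2 measured Wt1 probes the other went the opposite way (-0.73), and with the mean of all probes neither Wt1 (0.26, adjusted p = 0.246) nor Synpo (0.32, adjusted p = 0.142) passed. The slit diaphragm gene Nphs1 (1.06, adjusted p = 0.0612) and the phosphatase Ptpro (0.92, adjusted p = 0.103) lay above normal on both arrays but did not pass, and each passed with 6 arrays.

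Endothelial genes lay above normal as well, with a lower median. All 16 had a change above 0, against 45.5% of all genes (median 0.26; 0.15 without normal replicate 2), and 3 rose: Tek, the angiopoietin receptor, by 1.10, Ehd3, an endocytic protein of glomerular endothelium, by 1.04, and Eng, a TGF-beta co-receptor, by 0.71. The levels of Tek were -1.60 on both normal and -0.50 on both db/db arrays. General endothelial genes such as Pecam1 (0.26), Cdh5 (0.28) and Plvap (0.30) did not pass in either fit. Of 11 mesangial and juxtaglomerular genes none passed (median 0.10), and Rgs5, Itga8 and Art3 passed with 6 arrays, all higher.

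In the proximal tubule the first and the last part had medians on opposite sides of 0. The 13 genes of S1 had a median of 0.77, with 11 above 0 against 45.5% of all genes and 10 higher without overlap against 28.3%, and none passed with 8 arrays (6 rose and 1 fell with 6 arrays). Prodh2, an enzyme of hydroxyproline breakdown, had levels of 1.75 and 2.00 in normal and 3.87 and 3.74 in db/db kidney (change 1.93, adjusted p = 0.0766; 0.00540 with 6 arrays). Slc7a8, a basolateral exchanger of neutral amino acids, went from 3.03 and 2.90 to 4.79 and 4.40 (1.63, adjusted p = 0.0751; 0.00747 with 6 arrays). Of 2 Slc7a8 probes the other stood at 0.014. Gatm, which makes the creatine precursor, Slc2a2, the basolateral glucose transporter GLUT2, and Slc5a12, a lactate transporter, stood at 1.06, 0.95 and 0.80, and Slc5a2, the glucose transporter SGLT2, at 0.70. The exceptions were the giant endocytic receptors: Lrp2 (megalin) stood at -0.72 (adjusted p = 0.204; 0.0402 with 6 arrays) and its partner Cubn at -0.18.

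In S2 the list as a whole stayed near the middle (11 genes, median 0.16), but 2 members fell. Slc17a3, an apical exporter of urate and organic anions, fell by 1.41 (adjusted p = 0.0481), and Slc22a2, the basolateral organic cation transporter OCT2, by 1.19 (adjusted p = 0.0215). The organic anion transporter Slc22a6 (OAT1) stood at -0.60 (adjusted p = 0.136).

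In the straight part S3, 13 of 14 genes had a change below 0 (median -1.01), 12 were lower without overlap against 35.0% of all genes, and 3 fell (8 with 6 arrays). Cyp7b1, an oxysterol hydroxylase, was at 5.75 and 5.56 in normal and 1.11 and 1.39 in db/db kidney, a fall of 4.40 (adjusted p = 7.68e-04). Acsm3, a medium-chain acyl-CoA ligase, was at 5.35 and 5.95 against 1.52 and 1.61 (fall of 4.08, adjusted p = 0.0164), and Cyp4b1 fell by 1.95 (adjusted p = 0.0173). Slc7a13, the cystine and aspartate transporter that marks S3, stood at -2.56 (adjusted p = 0.0566), and the lipid flippase Atp11a at -2.17 (adjusted p = 0.0789); both passed with 6 arrays. The glucose transporter Slc5a1 (SGLT1) alone lay above 0 (0.37). Of these 14 genes, 6 also stand on the list of androgen-dependent kidney genes. The other 8 had a median of -0.59, 7 of them below 0, and 0 passed with 8 arrays while 3 fell with 6. The summed linear signal of the S3 list was 894 and 1081 units of the 75th percentile in normal and 425 and 464 in db/db kidney, while that of S1 was 614 and 772 against 858 and 805.

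Brush border genes of all proximal tubule parts lay on both sides of 0. Of 17 measured, 1 fell: Ggt1 (gamma-glutamyl transferase), by 1.19, from 5.00 and 5.21 to 3.84 and 3.99 (adjusted p = 0.0181). The meprin subunits Mep1b (-1.39) and Mep1a (-1.03), neprilysin (Mme, -0.74) and trehalase (Treh, -0.73) lay lower and passed with 6 arrays, whereas Xpnpep2, an aminopeptidase, stood at 2.46 (adjusted p = 0.152; 0.0121 with 6 arrays). The list's median was -0.13, with 6 genes above 0 and 11 below; 1 rose and 6 fell with 6 arrays.

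Beyond the proximal tubule few marker genes passed. None of 9 thin limb genes passed in either fit (median -0.52, from -0.57 to 0.016 under the alternatives). Of 15 thick limb genes (median 0.09) none passed with 8 arrays, and Cldn16, a magnesium channel-forming claudin, passed with 6 (0.74). Umod, the secreted uromodulin of the thick limb, stood at -0.54. The 10 distal convoluted tubule genes had a median of 0.38, with 8 higher without overlap against 28.3% of all genes and none passing; Slc12a3, the thiazide-sensitive NaCl transporter, stood at 0.83, and Trpm6 and Kcnj10 passed with 6 arrays. The 8 connecting tubule genes had a median of 0.78 and a summed signal of 198 and 262 in normal against 509 and 446 in db/db kidney. Trpv5, the apical calcium channel, rose by 1.49 (levels -2.70 and -3.05 against -1.16 and -1.62, adjusted p = 0.0378). The calcium carriers Calb1 (1.99, adjusted p = 0.0651) and S100g (1.18, adjusted p = 0.0510) did not pass and did with 6 arrays.

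In the collecting duct, genes of acid-secreting cells lay above normal and those of water-handling cells on both sides of it. Of 13 type A intercalated cell genes 11 had a change above 0, against 45.5% of all genes (median 0.40), and 2 rose, against 1.24%. Car2, the cytosolic carbonic anhydrase, had levels of 4.44 and 4.42 in normal and 5.41 and 5.45 in db/db kidney (rise 0.99, adjusted p = 0.0172). Atp6v1b1, a subunit of the proton pump shared with type B cells, rose by 0.67 (adjusted p = 0.0453). In type B cells Oxgr1, the receptor for 2-oxoglutarate, rose by 0.71, while the other genes kept the list's median at -0.01. None of 12 principal cell genes passed; Hsd11b2, which shields the mineralocorticoid receptor from glucocorticoid, stood at 0.80 and Aqp4 at -1.22, and both passed with 6 arrays. Medullary osmolyte genes had a median of -0.27 (0.069 without normal replicate 1), and Akr1b3, the sorbitol-making aldose reductase, stood at -2.20 with levels of 5.67 and 4.19 in normal against 2.85 and 2.62 (adjusted p = 0.0596).

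Genes of other cells in the samples differed as well, and their part in the segment results was not tested. Urothelial genes, which mark the renal pelvis, had a median of -2.70 over 12 measured genes with summed signals of 28.6 and 16.3 in normal against 12.8 and 12.3 in db/db kidney. Fat cell genes had a median of -2.28 over 10 genes, but their sum was 73.7 on normal replicate 1 and 10.4 on normal replicate 2, against 11.0 and 9.56. Normal replicate 2 minus replicate 1 had a median of -2.97 over these genes and of -1.91 over urothelium. All 15 measured macrophage genes were lower without overlap, against 35.0% of all genes (median -1.04, sums of 48.7 and 46.8 against 22.0 and 23.1). Of these, Ms4a7 and Csf1r fell by 1.78 and 1.26. For Csf1r the other probe stood at -0.17. All 13 T and NK cell genes were lower without overlap, against 35.0% of all genes (median -0.88), and none passed (6 fell with 6 arrays). Red cell genes stood at a median of 3.74 over 7 genes, with sums of 13.7 and 24.8 against 187 and 273; none passed with 8 arrays and 6 rose with 6. B cell and neutrophil genes had medians of -0.59 and -0.05 over 7 genes each. Fibroblast genes had a median of -0.53, and of 4 measured genes each, adrenal and skeletal muscle genes had medians of 0.11 and 0.16. How much cortex, medulla and pelvis each sample held is not given in the sources used here.

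Without normal replicate 1, on which fat and urothelial genes were highest, the medians were 0.76 for podocytes, 0.54 for S1 and -1.13 for S3.

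Among transporters, the organic anion and cation carriers of the proximal tubule showed the largest differences, and all that passed were lower. Slco1a1, an androgen-dependent carrier of steroid conjugates and bile acids on chromosome 6, had levels of 2.15 and 3.01 in normal and -4.47 and -4.05 in db/db kidney, a 115-fold fall (adjusted p = 0.00365). Slc22a7, the organic anion transporter OAT2, on chromosome 17, was at 5.82 and 5.52 against -1.14 and -0.88, 102-fold lower (adjusted p = 0.0112). Normal and db/db arrays were thus separated by over 6 log2 units for both genes. Of 24 measured SLC22 members 4 fell: Slc22a7, Slc22a26 (-4.52), Slc22a12, the urate exchanger URAT1 (-1.27), and Slc22a2. With 6 arrays 8 fell and 3 rose. The 2 largest rises there were those of the neighbouring genes Slc22a27 and Slc22a29 on chromosome 19, at -4.14 and -3.91 against -0.74 and -0.70, and at -2.67 and -2.50 against 0.94 and 0.90. Their adjusted p was 0.124 and 0.0810 with 8 arrays and 9.43e-04 and 7.92e-04 with 6. These genes lie in a cluster of close copies with Slc22a26, so probes of this cluster may bind more than 1 of them. Of 8 SLCO members Slco3a1 also fell (-1.17, adjusted p = 0.0262).

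Amino acid, sugar and nucleoside carriers moved in both directions. Slc38a4, a neutral amino acid transporter, rose by 1.64, from -3.09 and -3.36 to -1.50 and -1.67 (adjusted p = 0.0107). Slc3a2, the shared heavy chain of the exchangers that include Slc7a8, rose by 1.39, from 4.17 and 4.37 to 5.78 and 5.54 (adjusted p = 0.0462). Of 13 measured SLC3 and SLC7 members 5 rose and 2 fell with 6 arrays. Slc16a10, an aromatic amino acid carrier, rose by 0.71, whereas Slc6a15 and Slc6a9, carriers of branched-chain amino acids and of glycine, fell (-1.17 and -1.15). Among 9 SLC5 members, with a median of 0.48, Slc5a10, the mannose and fructose transporter SGLT5, rose by 1.13 (5.77 on both normal arrays against 6.92 and 6.86, adjusted p = 0.0272). Slc29a1, an equilibrative nucleoside transporter, rose by 0.95. None of 10 SLC2 glucose transporters passed, with Slc2a2 (0.95) and the fructose transporter Slc2a5 (0.98) passing with 6 arrays.

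Ion handling had single large changes rather than family-wide ones. Slc9a8, a sodium-proton exchanger, fell by 2.33, from 5.61 and 5.87 to 3.42 and 3.40 (adjusted p = 0.00550), and it was the only one of 9 SLC9 members to pass in either fit. Of 56 measured potassium channel genes 3 rose and 1 fell (11 and 4 with 6 arrays). Kcnj5, an inward rectifier, rose by 1.35 and Kcnq1 by 0.61, although 1 of 4 Kcnq1 probes stood at -0.59 and the mean of all 4 did not pass (0.27, adjusted p = 0.225). Kcnu1, which lay well above background on only 1 normal array, rose by 1.28, and Kcnj8, the pore of vascular ATP-sensitive channels, fell by 0.84. Of 22 proton pump genes Atp6v1b1 alone passed, with 14 higher without overlap against 28.3% of all genes (median 0.24; 0.11 without normal replicate 1). No member passed with 8 arrays among 9 SLC4, 9 SLC12, 20 SLC30 and SLC39, 10 aquaporin, 20 claudin and 43 SLC25 genes.

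Of 39 measured ABC pumps 3 rose and 0 fell (8 rose and 2 fell with 6 arrays). Abcc4, an apical exporter of organic anions and cyclic nucleotides, rose by 1.72, from 1.41 and 1.17 to 2.96 and 3.05 (adjusted p = 0.0320). Abca8a rose by 1.71 and Abcb4, a phospholipid floppase, by 0.64. The other Abca8a probe stood at -0.14, and the mean of both did not pass (0.78, adjusted p = 0.213). The anion exporter Abcc4 thus rose, while the carriers Slco1a1, Slc22a7 and Slc22a26 fell.

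**Figure D2:**
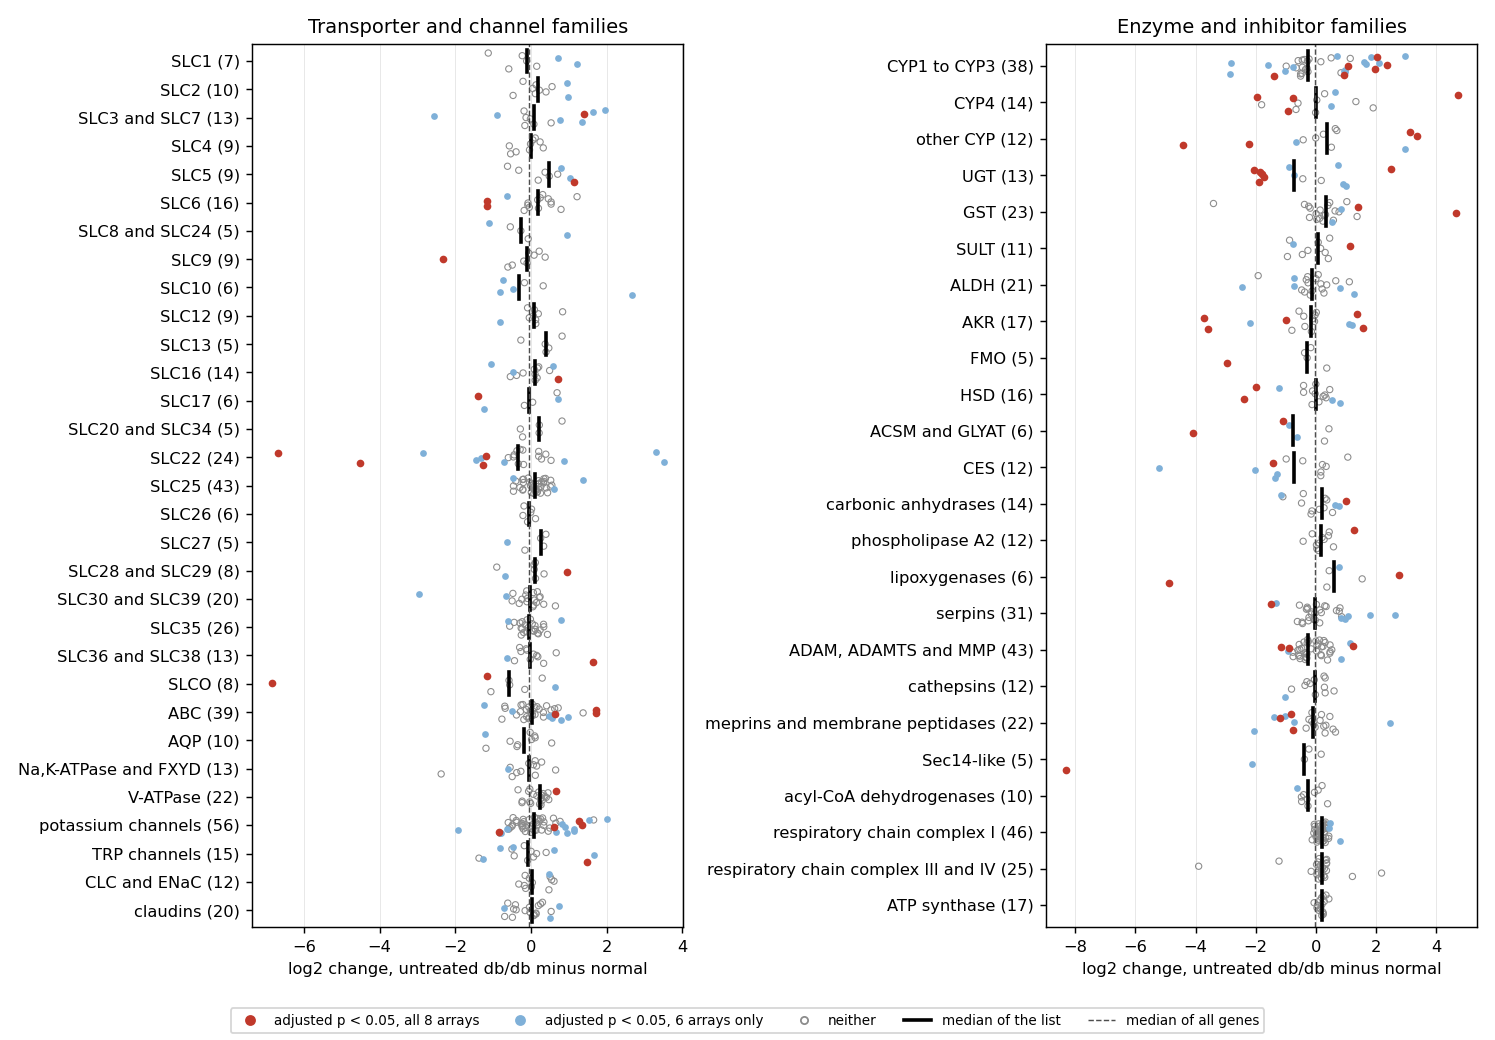
Change of each measured member (x axis, log2 untreated db/db minus normal; 1 point per gene) of transporter and channel families (left) and of enzyme and inhibitor families (right) with at least 5 measured genes. Red points passed in the fit of all 8 arrays and blue points only with 6 arrays, and the black bar is the family's median. Large falls stand out in SLC22 and SLCO, and UGT and AKR have members on both sides.

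The UGT2B enzymes, which join steroids and other lipids to glucuronic acid, split into 5 that fell and 1 that rose, all 6 measured members passing in both fits. Ugt2b5 went from 4.32 and 4.88 in normal to 2.62 and 2.49 in db/db kidney (fall of 2.05, adjusted p = 0.0162), and Ugt2b37, Ugt2b36, Ugt2b35 and Ugt2b38 fell with changes of -1.89, -1.87, -1.80 and -1.72. Ugt2b34 went from -0.16 and -0.19 to 2.34 and 2.29 (rise 2.49, adjusted p = 0.00639). The genes stand side by side on chromosome 5 and are close copies, so a probe of 1 of the 5 lower genes may also bind the others, and their falls are not independent of each other.

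The 100 bases before the start of each UGT2B gene are shown because these neighbouring copies changed in both directions and their starts can be compared base by base. All are from RefSeq on GRCm38.p6, 5′ to 3′ along the gene. Capitals mark GTTANANTTTAAC, the best conserved stretch of 13 bases over the 6 UGT2B windows and AAGGTCAAGCA, the longest run that Ugt2b5 shares with Slco1a1, which holds the AGGTCA core read by nuclear receptors. Both were searched on both strands, and where they stand in these windows they do not overlap.
Ugt2b5 (chr5:87140341-87140440, minus strand): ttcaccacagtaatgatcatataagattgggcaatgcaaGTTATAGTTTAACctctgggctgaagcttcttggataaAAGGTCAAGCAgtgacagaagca
Ugt2b37 (chr5:87254789-87254888, minus strand): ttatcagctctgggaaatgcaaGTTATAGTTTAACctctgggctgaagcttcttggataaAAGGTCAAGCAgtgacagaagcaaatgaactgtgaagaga
Ugt2b38 (chr5:87424204-87424303, minus strand): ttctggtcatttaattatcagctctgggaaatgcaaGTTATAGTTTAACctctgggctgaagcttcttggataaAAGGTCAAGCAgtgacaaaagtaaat
Ugt2b36 (chr5:87092556-87092655, minus strand): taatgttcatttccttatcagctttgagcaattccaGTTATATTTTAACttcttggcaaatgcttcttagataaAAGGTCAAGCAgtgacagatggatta
Ugt2b35 (chr5:87000760-87000859, plus strand): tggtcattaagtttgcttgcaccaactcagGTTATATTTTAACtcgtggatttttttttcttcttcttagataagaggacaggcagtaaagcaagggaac
Ugt2b34 (chr5:86906938-86907037, minus strand): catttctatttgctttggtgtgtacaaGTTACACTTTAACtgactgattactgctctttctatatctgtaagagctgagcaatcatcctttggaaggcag
Slco1a1 (chr6:141946963-141947062, minus strand): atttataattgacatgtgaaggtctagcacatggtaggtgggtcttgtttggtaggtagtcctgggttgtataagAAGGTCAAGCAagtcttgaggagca

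The letters GTTANANTTTAAC stand between 61 and 78 bases before the start in all 6 UGT2B windows, that of the rising Ugt2b34 included. Among all 32851 promoter windows of 250 bases 10 hold them, or 0.0304%. The 43 bases from this element on are identical in Ugt2b5, Ugt2b37 and Ugt2b38, and those of Ugt2b5 match Ugt2b36 at 36 positions. They match Ugt2b35, which fell, and Ugt2b34, which rose, at 22 positions each, so this stretch does not divide the genes by direction. The run AAGGTCAAGCA stands in 4 of the 5 genes that fell and not in Ugt2b35 or Ugt2b34, and also before Slco1a1, which belongs to another family. It occurs in 9 of all windows, or 0.0274%, and of 13394 tested genes with a window these 5 alone have it. Without its first base it occurs in 15 windows and 7 tested genes, the further 2 being Krtap5-2 (-0.18) and Syt1 (-0.37), which did not pass. Both strings were read off these windows after the changes were known, and 4 of the 5 genes are copies of each other, so the matches only describe these windows. The D-box TTATGTAA, read by PAR bZIP factors, was found in 2.79% of 251 lower genes with a window, 1.09% of 183 higher genes and 0.687% of all tested genes with a window, a difference of few genes. The lower genes with it included Sec14l3, Acsm3 and Akr1c18, at 56, 63 and 192 bases before the start.

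Other drug and steroid enzymes showed the same mixture of rises and falls within a family. Of 38 measured members of cytochrome P450 families 1 to 3, 5 rose and 1 fell (14 and 6 with 6 arrays). Of these, 4 rises were in the CYP2D subfamily of 9: Cyp2d22 from -3.60 and -3.62 to -1.35 and -1.17 (2.35, adjusted p = 0.00365), Cyp2d10 by 2.03, Cyp2d26 by 1.98 and Cyp2d13 by 1.08. With the mean of all probes Cyp2d26 (1.34, adjusted p = 0.0802) and Cyp2d13 (0.44, adjusted p = 0.158) did not pass; the other Cyp2d13 probe stood at -0.20, and with normexp background its change was 0.36. Cyp2s1 rose by 0.94, and Cyp2e1, an androgen-dependent oxidase of ethanol and ketones in male kidney, fell by 1.40 from 7.46 and 8.03 to 6.30 and 6.39 (adjusted p = 0.0419). The 9 measured CYP2C genes had a median of 1.14 and none passed with 8 arrays. In the CYP4 family Cyp4b1, Cyp4f17 and Cyp4a29 fell while Cyp4a14 rose, whose level lay well above background on only 1 normal array.

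The aldo-keto reductases of the AKR1C subfamily, which reduce keto groups of steroids and prostaglandins, split as the UGT2B genes did. Akr1c18 (levels 0.65 and -0.14 against -3.73 and -3.18) and Akr1c14 (3.38 and 3.64 against -0.12 and -0.01) fell (-3.71 and -3.57). Akr1c20 and Akr1c12 rose by 1.58 and 1.35, and Akr1c19 (1.19) and Akr1c13 (1.09) passed with 6 arrays. All 8 members lie on chromosome 13. Of the hydroxysteroid dehydrogenases Hsd17b2, which inactivates estradiol and testosterone, fell by 2.38 (0.77 and 1.18 against -1.53 and -1.28, adjusted p = 0.0187), and Hsd17b11 by 1.99 (5.05 and 5.71 against 3.40 and 3.39). Fmo5, a flavin monooxygenase, fell by 2.96 with levels of 3.53 and 3.51 against 0.45 and 0.68 (adjusted p = 0.00191), and Adh1, the class I alcohol dehydrogenase, by 1.55. Sulfotransferase Sult1a1 and the glutathione transferase Gsto1 rose by 1.12 and 1.39. Of 12 measured carboxylesterases 7 had a change below 0 and 5 above (median -0.71; -0.14 over those well above background on all 4 arrays). Ces2b fell (-1.42), the only one to pass with 8 arrays against 5 with 6, and Ces1g stood at least 25.2-fold lower without passing (adjusted p = 0.0681; 0.00832 with 6 arrays).

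Lipid oxygenases showed an exchange of members. Alox15, the 12/15-lipoxygenase, fell by 4.89 (-0.78 and 0.54 against -4.95 and -5.07, adjusted p = 0.00839). Alox5, which opens leukotriene synthesis, was not well above background in normal kidney and rose at least 5.63-fold (levels -2.41 and -2.51 in db/db kidney, adjusted p = 9.41e-04). With normexp background its change was 0.98. Alox5 is also a leukocyte gene; the macrophage genes had a median of -1.04, and their part in this result was not tested.

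Pathways of energy and amino acid metabolism changed at single steps. Enzymes that use ketone bodies, Bdh1 (-1.50), Acat1 (-0.91) and Oxct1 (-0.73), lay lower without passing and passed with 6 arrays. None of 19 mitochondrial fatty acid oxidation genes passed (median 0.01), and of 21 PPAR-alpha targets 3 rose, Cyp4a14 and Fabp1 among them (median 0.52; 5 rose and 1 fell with 6 arrays). Respiratory chain genes differed little. A change above 0 was found for 41 of 46 complex I genes and 16 of 17 ATP synthase genes, against 45.5% of all genes. Their medians were 0.20 and 0.19, and 0 passed with 8 arrays (3 complex I genes rose with 6). Without normal replicate 1 the medians were 0.081 and 0.074, and quantile normalization gave 0.13 for complex I. Replicate 2 of normal kidney lay above replicate 1 by a median of 0.21 and 0.19 over the same lists, as far apart as the groups. In cholesterol synthesis Cyp51 and Idi1 fell by 2.22 and 1.72 and Lss rose by 0.65, so the pathway had no common direction (23 genes, median -0.08).

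Of 13 genes of glucose and ammonia production Fbp2 rose by 1.48 (-1.34 and -1.31 against 0.20 and 0.12, adjusted p = 0.0106), and Pck1, the key enzyme of gluconeogenesis, stood at 1.15 (adjusted p = 0.0661; 0.0373 with 6 arrays). Bhmt and Shmt1, of homocysteine and one-carbon metabolism, rose by 3.12 and 1.01, and Oat, ornithine aminotransferase, by 1.16. In tryptophan breakdown Kynu rose by 3.78 and Ido2 fell by 1.71. Of 15 targets of the antioxidant factor Nrf2, Gsta2 and Abcc4 rose and the malic enzyme Me1 fell by 1.29.

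Of 18 measured androgen-dependent kidney genes 17 were lower without overlap, against 35.0% of all genes, 7 fell and 0 rose (14 fell with 6 arrays), and the median was -1.42. Besides Slco1a1, Cyp7b1, Acsm3, Cyp4b1, Ugt2b38 and Cyp2e1 the list held Serpinf2, which fell by 1.50. Of 14 female-biased genes 9 had a change above 0 and 5 below, with a median of 0.61. Without overlap 8 were higher, against 28.3% of all genes, and 4 lower, against 35.0%. With 8 arrays 3 rose (Cyp4a14, Gsta2 and Kynu) and 2 fell (Slc22a7 and Fmo5), and with 6 arrays 6 rose and 3 fell. Both lists were known from the earlier analysis to differ here. Hormone levels were not analysed here.

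**Figure D3:**
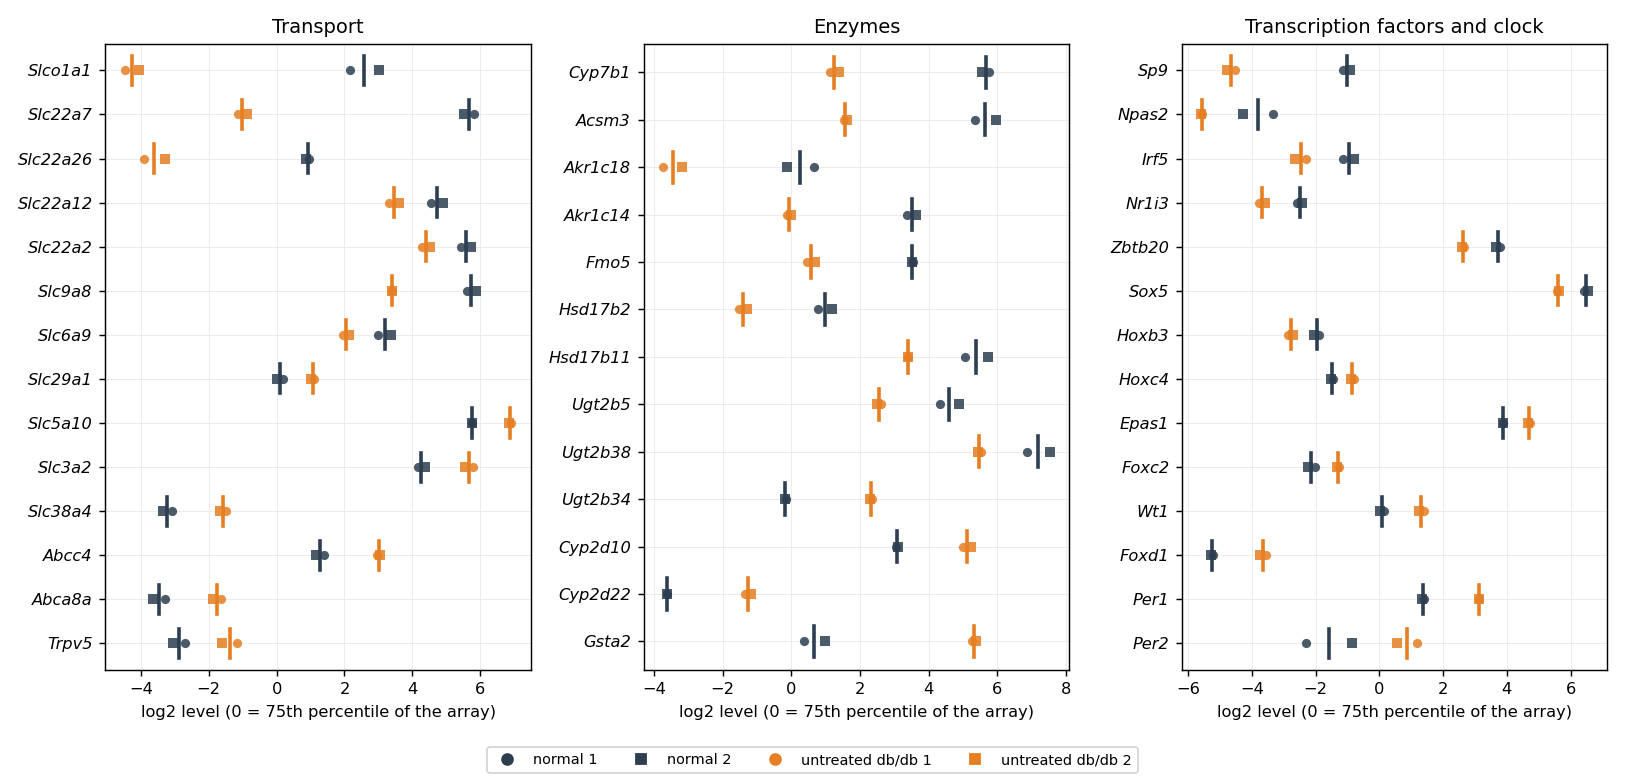
Level of selected genes on each of the 4 arrays (x axis, log2 signal relative to the 75th percentile of the array; dark points normal, orange points untreated db/db, circles replicate 1, squares replicate 2, bars group means) for transport (left), enzymes (middle) and transcription factors and clock genes (right). The genes were picked after their changes were known. For every gene drawn the groups do not overlap, as for 63.2% of all genes. Slco1a1 (2.15 and 3.01 against -4.47 and -4.05) is at one extreme and Hoxc4 (-1.46 and -1.52 against -0.81 and -0.89) at the other.

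Transcription factors changed in few members. Hnf4a, a master regulator of proximal tubule identity, had levels of 6.54 and 6.62 in normal and 6.78 and 6.78 in db/db kidney and did not pass. Of 39 nuclear receptors only Nr1i3 (CAR), a sensor of xenobiotics and steroids, passed, and it fell by 1.19 from -2.57 and -2.43 to -3.79 and -3.60 (adjusted p = 0.0173). Ppara stood at 0.17 and the related sensor Nr1i2 (PXR) at 0.71, and the latter passed with 6 arrays.

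Zbtb20, a zinc finger repressor, fell by 1.08 (3.77 and 3.65 against 2.66 and 2.60, adjusted p = 0.0155), the only one of 38 ZBTB genes to pass. Zbtb16, a steroid-responsive member, stood at 2.38 with db/db levels of 0.79 and 0.09 against -1.95 and -1.93 (adjusted p = 0.151; 0.00628 with 6 arrays). Of 328 ZFP zinc finger genes 0 rose and 4 fell (Zfp101, Zfp748, Zfp950 and Zfp85), and with 6 arrays 6 rose and 27 fell. The other Zfp748 probe stood at 0.78, and the mean of both at -0.018. The share that fell with 8 arrays, 4 of 328, is below the 2.26% of all genes. Sp9 had the largest fall among the factors that passed, from -1.14 and -0.92 to -4.52 and -4.79 (adjusted p = 0.0164).

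Developmental factors had rises and falls, in some families both. Of 31 FOX genes 2 rose, the podocyte factor Foxc2 and the stromal factor Foxd1, and with 6 arrays 4 rose and 1 fell. Foxd1 was not well above background in normal kidney and rose at least 2.46-fold (adjusted p = 0.0408). With normexp background its change was 0.29 and did not pass (adjusted p = 0.177). Of 30 HOX genes Hoxc4 and Hoxc8 rose by 0.64 and 0.60 and Hoxb3 fell by 0.82 (6 rose and 2 fell with 6 arrays). Of 19 LIM and Iroquois homeodomain genes 15 had a change below 0, and of 8 T-box genes 7, against 54.5% of all genes. Their medians were -0.24 and -0.70. Sox5 fell by 0.89, Tbx22 by 0.77, and Lhx2, not well above background in db/db kidney, fell at least 1.94-fold. Epas1, the hypoxia-inducible factor HIF-2 alpha, rose by 0.83, with 3.87 on both normal arrays against 4.72 and 4.68 (adjusted p = 0.0203), while Hif1a stood at 0.32. All 8 interferon regulatory factors lay lower without overlap, against 35.0% of all genes (median -0.81; 4 fell with 6 arrays), and Irf5, a factor of myeloid cells, fell by 1.51 (adjusted p = 0.0378). Macrophage genes had a median of -1.04, with 2 of 15 passing, and their part in the Irf5 result was not tested. No member of the 35 AP-1 and ATF, 22 ETS, 12 SMAD and TEAD or 5 NF-kB genes passed with 8 arrays.

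The circadian clock is a loop in which Arntl and its partners switch on their own repressors. Of 10 such repressors 9 had a change above 0 (median 1.18), 8 were higher without overlap against 28.3% of all genes, and 2 rose (3 with 6 arrays). The normal arrays lay a median of 1.03 apart over this list, and without normal replicate 1 its median was 0.69. Per1 had levels of 1.40 and 1.34 in normal and 3.14 and 3.13 in db/db kidney (rise 1.76, adjusted p = 0.00550), and Per2 went from -2.32 and -0.85 to 1.17 and 0.55 (rise 2.44, adjusted p = 0.0493). A further Per2 probe stood at 0.18. Npas2, an activator that pairs with Arntl, fell at least 2.75-fold (adjusted p = 0.0482), and Arntl itself stood at -1.41 with normal levels of -0.57 and -2.27. The 2 normal arrays lay far apart for Arntl, for Per2 and for the repressor Ciart (-6.99 and -2.31 against -0.81 and -0.64, adjusted p = 0.165). The hour at which the kidneys were taken is not given in the sources used here, and its part was not tested.

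**Figure D4:**
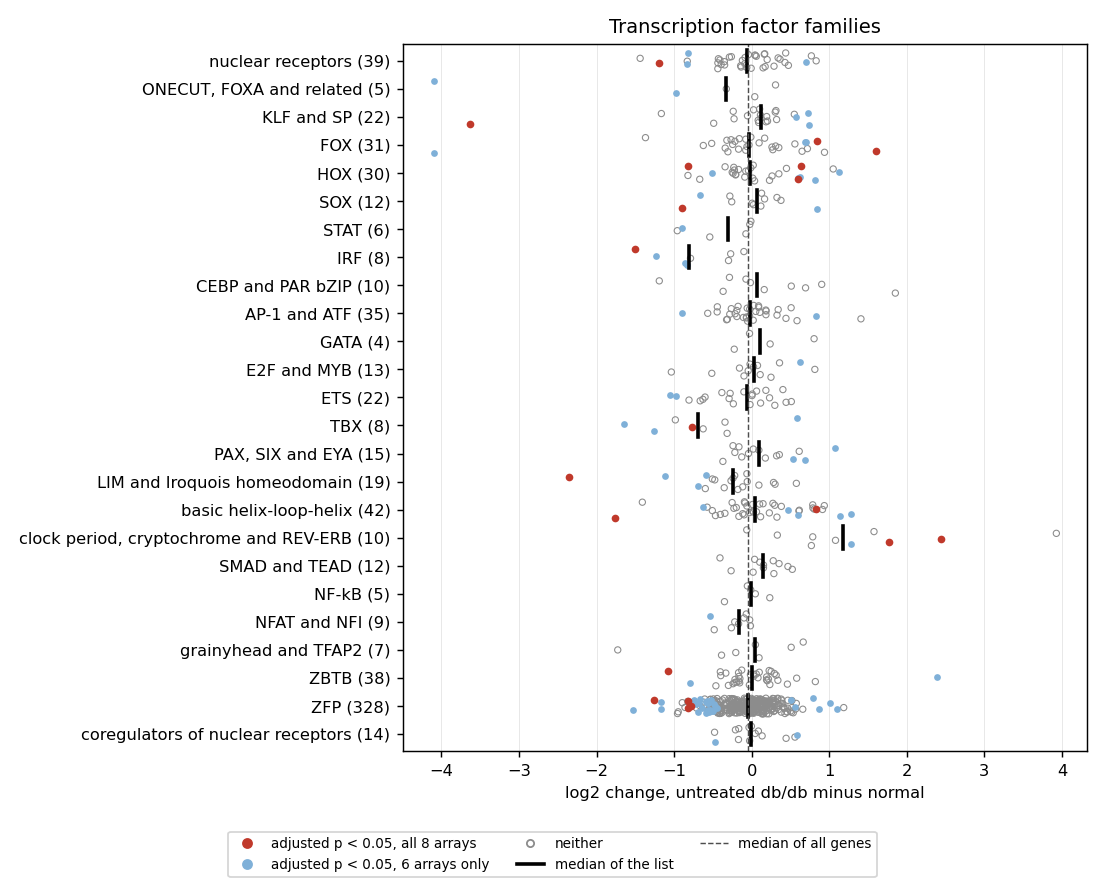
Change of each measured member (x axis, log2 untreated db/db minus normal; 1 point per gene) of transcription factor families with at least 4 measured genes. Red points passed in the fit of all 8 arrays and blue points only with 6 arrays, and the black bar is the family's median. Most medians lie near that of all genes (-0.04), the clock repressors at 1.18 and the interferon regulatory factors at -0.81.

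Genes close to Lepr were described apart, because the groups differ there by descent as well as by the db mutation. Of 145 genes whose probe lies within 10 Mb of that of Lepr on chromosome 4 (mm9), 2 rose and 4 fell, 4.14% against 3.50% of all genes, with a median of -0.03. Tek, given above, was one of those that rose. C8a, a complement component, D4Ertd681e and the receptor gene Ror1 fell by 1.58, 1.50 and 1.10, and the unnamed DV057310 fell at least 2.12-fold. Within 20 Mb, 8 of 343 genes rose and 10 fell, among them Cyp4a14, Cyp4b1 and Slc6a9. Across the autosomes and X the share of genes that passed ran from 2.61% to 4.95%.

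**Figure D5:**
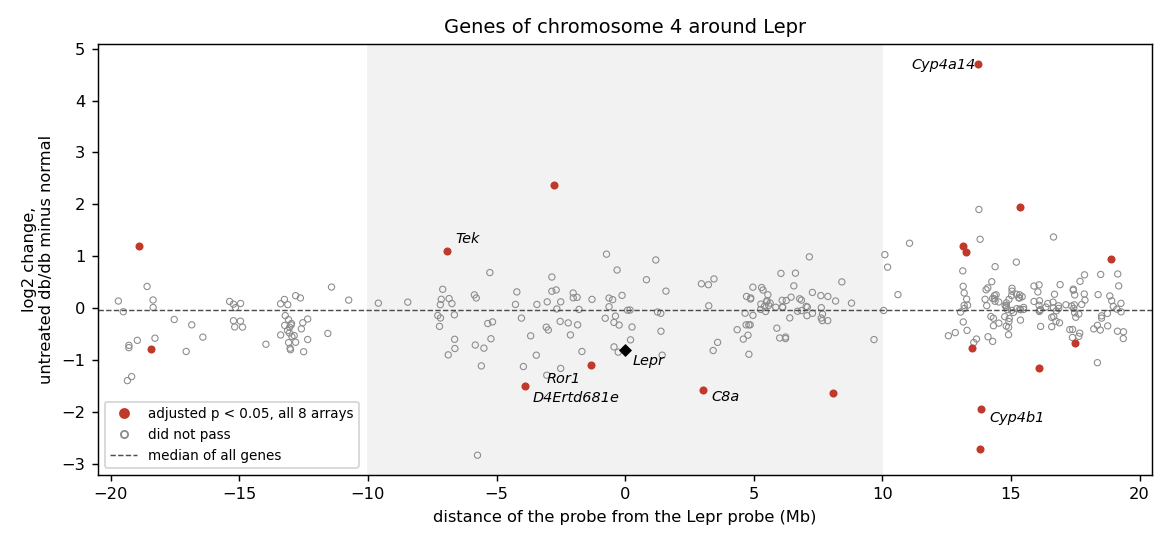
Change of each gene (y axis, log2 untreated db/db minus normal) against the distance of its probe from the Lepr probe on chromosome 4 (x axis, Mb); the grey band is the 10 Mb window, red points passed, and the black diamond is Lepr at -0.80. Points that passed lie on both sides of 0.

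The 2 db/db arrays that received the control miRNA took no part in choosing these genes except through the spread, the filter and the probe chosen. For some genes with large changes they gave levels close to those of untreated db/db mice. Slco1a1 was at -3.67 and -3.68, Slc22a7 at -0.67 and -1.76, Cyp7b1 at 1.30 and 1.48, Ugt2b34 at 2.17 and 2.02 and Akr1c14 at -0.08 and -0.31. These mice share the db genotype with the untreated ones but also received nanoparticles, and they are set beside them only as values. Per1 (2.67 and 2.60) and Zbtb16 (-1.50 and -1.38) lay nearer to normal than in untreated db/db kidney. Cyp24a1 was at 3.61 and 2.32, against 4.74 and 4.23 in untreated db/db and 1.20 and 1.04 in normal kidney. Cyp27b1 (1.40 and 2.09) lay further from normal than in untreated db/db kidney (0.98 and 0.97).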

How the data were processed

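Cy3-labelled kidney RNA was hybridised to 1-colour Agilent mouse arrays, and the deposited intensity values are, per the file headers, background-subtracted signals from Agilent Feature Extraction 12.0.3.1, with raw spot and background intensity beside them. The authors' deposited value table held a linear ratio of each probe to its median over the 8 arrays and served as an alternative. For the results, 4 probes with outlier calls were dropped, spots of a probe were averaged, log2 signal was shifted by the 75th percentile of each array, and the probe with the highest mean stood for a gene. Probes had to exceed background clearly on each array of at least 1 group. Gene names came from the transcript accession for 33766 of 56601 probes, from the symbol for 9864, from a synonym for 310 and otherwise (12661) from the array's own annotation, which is on mm9.

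Groups were compared with limma 3.58.1 in R 4.3.3 (lmFit, eBayes; Benjamini-Hochberg adjusted p under 0.05), tested on simulated data. An exact permutation test of 2 against 2 samples cannot give a p under 0.333, so none was run. A fold written as "at least" sets the brighter group's mean against the lowest signal well above background, or the dim probe's own signal where higher. Such a bound holds only for the background treatment of the main fit. With normexp background the changes of Ces1g and DV057310 were -2.44 and -0.57. In each list or family up to 8 members that passed, by size, and up to 4 that did not were named, and over all genes the 15 largest changes each way; some genes that the rule names are not reported here. The members and lists were chosen with earlier results of these data known. Probes of close gene copies (the UGT2B, CYP2D, CYP2C, AKR1C, GSTA, SLC22 and globin genes) may bind each other's RNA, which was not tested. Alternatives changed the normalization, background, filter, arrays in the fit, replicate block, probe rule and value table.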

Additional observations from a re-analysis of the deposited data

How the results depend on the processing

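The counts of genes that passed depended on the fit. The 278 higher and 505 lower genes became 494 higher under quantile normalization (467 lower), 887 and 1117 with normexp background, 86 and 206 with no filter on dim probes (36824 genes tested), 953 and 1423 with only the 4 arrays compared, and 1339 and 2001 with 6 arrays. Leaving out 1 array of either group left between 1 and 10 higher and between 17 and 40 lower genes, the lone sample being assumed to vary like the other groups, so most calls need both samples of each group. With the replicate number of the titles as a block, 166 genes were higher and 307 lower; deviations of equally numbered normal and untreated samples correlated at 0.08, and the labels give no shared source for the numbers. Hnf4a turned to -0.17 with the mean of all its probes, and Ppara lay between -0.024 and 0.37 when 1 normal array was left out, on both sides of 0. Of 121 named genes that passed, 104 still did with the mean of all probes of a gene; Abca8a, Cyp2d13, Cyp2d26, Eng, Hoxb3, Irf5, Kcnq1, Lss, Shmt1, Slc16a10, Slc17a3, Slc3a2, Synpo, Wt1, Zbtb20, Zfp748 and Zfp950 did not. Of the 121, 57 passed with no filter on dim probes, 88 with the replicate block and between 9 and 16 when 1 array was left out. With normexp background 115 of the 121 passed, and Cyp2d13, Cyp4a29, F10, Foxd1, Hoxc8 and Kcnu1 did not. None of the 121 changed direction under the alternatives run. The fits of 4 or 6 arrays and the replicate block leave the size of each change as it was. The 121 were also picked for passing, so their stable direction was largely fixed in advance. Precision is limited by 2 arrays a group, and dim probes have only a bound.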
